A study of Mus musculus with 27 samples.

Results

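The features described here are long noncoding RNAs catalogued in NONCODE, a database of noncoding transcripts, that lie antisense to protein-coding exons in the mouse heart. In the study's own gene model (mouse build mm9) they are the features with a NONCODE number of which an exon overlaps a protein-coding exon on the opposite strand and no exon overlaps a coding exon on the same strand. The rule used positions only, no measured values, and gave 3057 of the 36991 NONCODE features and of the 57683 features in all.

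The study sequenced poly(A) RNA of 27 hearts, all from the inbred mouse strain C57BL/6J, in libraries that did not keep the strand of the RNA. There were 7 whole embryonic hearts titled E13.5, for the day of gestation, whose sex the labels give as unknown and whose age field differs slightly from that title. Ventricular apexes came from 20 adults: 6 unoperated males at 6 weeks of age, 6 unoperated males at 16 weeks, 4 sham-operated males at 12 weeks, and 4 mice at 12 weeks after 4 weeks of transverse aortic constriction (TAC), of which 3 are labelled male and 1 female. TAC is a surgical narrowing of the aorta that makes the left ventricle pump against raised pressure. Every library was 1 heart, so errors are the spread between animals, and no group carries a transgene or gene deletion.

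Antisense transcripts are read from the strand opposite to a gene. Some start near the gene's own promoter and run away from it, some lie within the gene, and others run into its far end. A few are known to act on their partner: the antisense RNA at Igf2r silences the paternal copy of that receptor gene, and antisense transcription at the Myh6 and Myh7 locus has been tied to the choice of myosin isoform in rodent hearts. For most, no function is known.

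Total counts ran from 7543375 to 12646039 per library at E13.5, from 2092270 to 2682955 in both unoperated adult groups together, and from 7958592 to 11846819 in sham and TAC hearts. Whole heart against apex went with stage, and the 2 cannot be told apart. The lower depth and another base quality encoding went with the unoperated adults alone. Of the E13.5 calls of features named below, 39 of 41 were kept with the embryonic libraries thinned to adult depth, and 38 of 42 with sham hearts as the reference. Counts of 4 Y-linked genes went against the sex label in 2 libraries each of the 6-week, 16-week, sham and TAC groups. Counts of called features are therefore also given without those 8 sex-discordant libraries. All 7 cardiomyocyte markers were detected in every group, with summed levels of 21528 to 28329 CPM (counts scaled to library size) at E13.5, 106795 to 129275 CPM in unoperated adults, 147127 to 175097 CPM in sham and 126902 to 151996 CPM in TAC hearts. In TAC, 1 of these 7 was higher and 3 were lower. The 7 erythroid markers summed to 2633 to 8817 CPM at E13.5 and to at most 510.1 CPM in adults. The 8 fibroblast markers summed to 1210 to 1361 CPM in sham and 2451 to 4828 CPM in TAC hearts, and the 7 macrophage markers to 358 to 417 CPM and 485 to 704 CPM. The 6 atrial markers summed to 227 to 262 CPM in sham and 2481 to 3908 CPM in TAC hearts. The part of these in the results below was not tested. In bulk tissue, fewer cells of a type and less RNA per cell cannot be told apart.

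The 3057 antisense features had 2285 partners, a partner being the coding gene on the other strand with the longest exon-to-exon overlap. They were mostly short models with little overlap. The median feature had 1698 exonic bases, of which 258 lay across from a coding exon, and 1369 features had a single exon. Coding sequence was overlapped by 2116, and only untranslated exon by 941. By layout, 1214 lay inside their partner, 1106 stood head to head with it (across its start), 677 tail to tail (across its end) and 60 spanned it. Among them, 139 were antisense to more than 1 coding gene.

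What could be counted was set by this layout. Reads carried no strand, and 6532 features of the table without an exonic base outside all other features held no count. An antisense feature is thus measured on its own bases, those exonic bases that no other feature shares on either strand. Of the 3057, 528 had no own base and no count, 362 had own bases and no count, and 2167 had a count in at least 1 library. The own bases lay wholly within the partner's span, and hence in its introns, in 1106 features, and wholly outside every coding gene's span in 594. Within an intron, reads of the antisense feature and of unspliced partner RNA cannot be told apart.

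**Figure D1:**
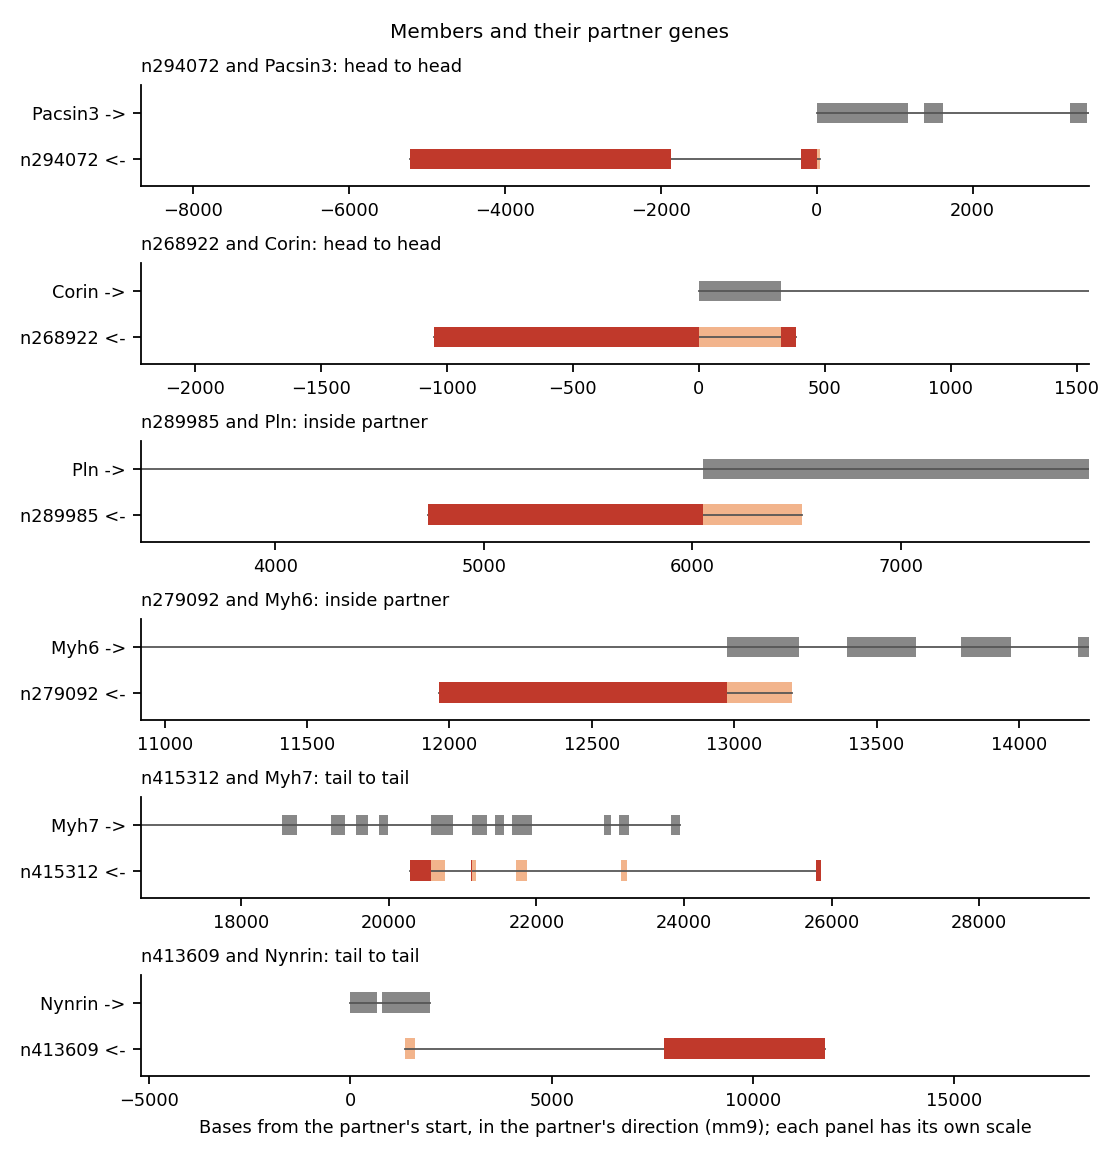
Exon maps of 6 antisense features (lower track of each panel) and their partner genes (grey, upper track), drawn in bases from the partner's start in the partner's direction, with arrows for the direction of transcription. Dark red marks a feature's own bases and light orange the bases shared with another feature's exons. n294072 and n268922 cross their partner's start, n289985 and n279092 lie inside their partner, and n415312 and n413609 cross its far end.

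Features that stand head to head with their partner start inside it and run out across its promoter. For 5 of the 17 such features named below, the promoter of the partner is shown, because in the mm9 gene model the antisense feature starts inside the partner and runs out over this side of its start. These are the 250 bases before the most upstream start that RefSeq gives on build GRCm38.p6, printed 5' to 3' on the partner's strand. Capitals mark matches on either strand to 4 short motifs: the GC box (GGGCGG or CCGCCC), the CCAAT box (CCAAT or ATTGG), the TATA box (TATAAA or TTTATA) and a GATA site (AGATAA or TTATCT).
Pacsin3 (GRCm38.p6 chr2:91256563-91256812, plus strand): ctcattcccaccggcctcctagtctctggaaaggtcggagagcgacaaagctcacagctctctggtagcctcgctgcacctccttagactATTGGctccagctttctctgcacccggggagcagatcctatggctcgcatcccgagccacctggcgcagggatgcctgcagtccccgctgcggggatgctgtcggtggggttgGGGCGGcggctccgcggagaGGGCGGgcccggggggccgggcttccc
Rab20 (GRCm38.p6 chr8:11478641-11478890, minus strand): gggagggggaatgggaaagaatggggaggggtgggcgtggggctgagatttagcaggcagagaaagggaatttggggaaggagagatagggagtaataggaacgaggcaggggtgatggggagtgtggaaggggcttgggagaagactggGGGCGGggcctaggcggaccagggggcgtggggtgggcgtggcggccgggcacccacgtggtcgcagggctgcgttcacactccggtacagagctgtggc
Corin (GRCm38.p6 chr5:72504541-72504790, minus strand): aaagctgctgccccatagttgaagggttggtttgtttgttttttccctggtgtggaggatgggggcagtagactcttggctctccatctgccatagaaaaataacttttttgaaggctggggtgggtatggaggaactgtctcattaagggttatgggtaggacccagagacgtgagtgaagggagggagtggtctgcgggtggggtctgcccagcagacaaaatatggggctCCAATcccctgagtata
Kcnj3 (GRCm38.p6 chr2:55435720-55435969, plus strand): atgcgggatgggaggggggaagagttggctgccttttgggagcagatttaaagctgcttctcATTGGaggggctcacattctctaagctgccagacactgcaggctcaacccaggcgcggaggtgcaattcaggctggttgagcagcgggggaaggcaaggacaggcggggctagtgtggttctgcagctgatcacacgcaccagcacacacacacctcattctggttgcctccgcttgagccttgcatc
Topors (GRCm38.p6 chr4:40269842-40270091, minus strand): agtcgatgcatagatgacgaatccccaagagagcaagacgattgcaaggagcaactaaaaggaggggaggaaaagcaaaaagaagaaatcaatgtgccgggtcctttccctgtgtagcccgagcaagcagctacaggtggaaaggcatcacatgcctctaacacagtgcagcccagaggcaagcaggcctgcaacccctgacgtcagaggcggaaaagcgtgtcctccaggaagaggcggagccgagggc
The Pacsin3 promoter held a pair of GC boxes and a CCAAT box, the Rab20 promoter 1 GC box, and the Corin and Kcnj3 promoters 1 CCAAT box each. No match to these letters was found in the Topors window. None of the 5 windows held the TATA or the GATA letters. Of 32841 RefSeq promoter windows of the same length, 32.7% held the GC box, 33.9% the CCAAT box, 12.4% the TATA box and 9.99% the GATA site. GC content was 67.6% for Pacsin3, 65.2% for Rab20, 58.4% for Kcnj3, 55.2% for Topors and 51.2% for Corin. Their antisense features, n294072, n267912, n263902, n291027 and n268922, overlapped 42, 311, 1621, 46 and 327 bases of coding-gene exons in mm9. A match is a description of the letters and not a binding site.

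The group as a whole gave a small part of the counted RNA. Levels are given as CPM scaled with 1 set of TMM factors (edgeR's trimmed-mean normalization) over all 27 libraries. The summed level of the 3057 features was 2159 to 2266 CPM at E13.5, 2235 to 2421 CPM at 6 weeks, 2112 to 2362 CPM at 16 weeks and 2429 to 2518 CPM in sham hearts. In TAC hearts it was 1991 to 2133 CPM, and the ranges of the 4 sham and 4 TAC hearts did not overlap. Without the 5 features with most counts it was 1892 to 1918 CPM in sham and 1735 to 1817 CPM in TAC hearts, a smaller gap. The other NONCODE features summed to 39261 to 44319 CPM in sham and 33294 to 37693 CPM in TAC hearts, also apart. Few single features were abundant: 377 had a mean over the 5 group means of at least 1 CPM, and 30 of at least 10 CPM. A count was seen for 1552 to 1659 features per E13.5 library, 1265 to 1376 per sham or TAC library and 789 to 939 per unoperated adult library, the shallowest of the groups.

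By level per kilobase of own bases, among features with at least 100 own bases, the highest were n415312 opposite Myh7, n279092 opposite Myh6, n4341 opposite Ccdc107, n414373 opposite Ncbp2, n413452 opposite Zfp106, n289985 opposite Pln, n286810 opposite Atcay and n282643 opposite Slc39a5. 3 of these 8 partners are core genes of the heart muscle cell: Myh7 and Myh6 encode the slow and fast cardiac myosin heavy chains, and Pln encodes phospholamban, which restrains the calcium pump of the sarcoplasmic reticulum.

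Each comparison was a quasi-likelihood test in edgeR on the raw counts of every feature that passed the tool's filter on low expression. A feature is called at a Benjamini-Hochberg adjusted p under 0.05 over all features tested, and every adjusted p in this text is of this kind. Fold changes are log2 values from each comparison's own fit, with their standard errors (SE).

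Between E13.5 and unoperated adult hearts, most antisense features that could be tested differed, in both directions. Features with lower levels at E13.5 included n294072 (Pacsin3), n413452 (Zfp106), n268448 (Carns1) and n289985 (Pln). Features with higher levels at E13.5 included n413609 (Nynrin), n288736 (Igf2r), n266249 (Tk1) and n413804 (Kcnq1). The embryonic level was called higher for 52 and lower for 56 of the 138 that could be tested, which is 78.3%, against 83.8% called among all 12766 features tested. By direction, 44.1% of all features were higher and 39.7% lower, with 44.1% and 40.5% of coding genes (84.6% in all) and 44.4% and 33.1% of other NONCODE features (77.5% in all). The groups did not overlap in 51 of the 138, against 54.5% of all features tested. The median log2 fold change was 0.04 over the 138 and 0.07 over all features. Without the 4 sex-discordant unoperated adult libraries, 65 were higher and 53 lower of 164 tested.

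These counts rest on what passed the filter. At the low depth of the adults, 85 of the 138 had a mean TMM-scaled CPM below 3.78, the filter's level, in E13.5 hearts, adult hearts or both. The filter itself reads CPM without TMM factors, so this count is approximate. A feature that passed only through the group where it was high leaned to a difference by the filter alone. This applies to the calls of single features below as well as to the counts. The counts thus describe the tested features and not all 3057. n295955 had a mean below that level in both groups, with 0.04 (adjusted p = 0.863), and was not called. It was not high in 1 group alone, so it does not bear on this lean. With no filter, 430 were higher and 188 lower of 2134 tested, beside 46% called of all 40024 features.

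**Figure D2:**
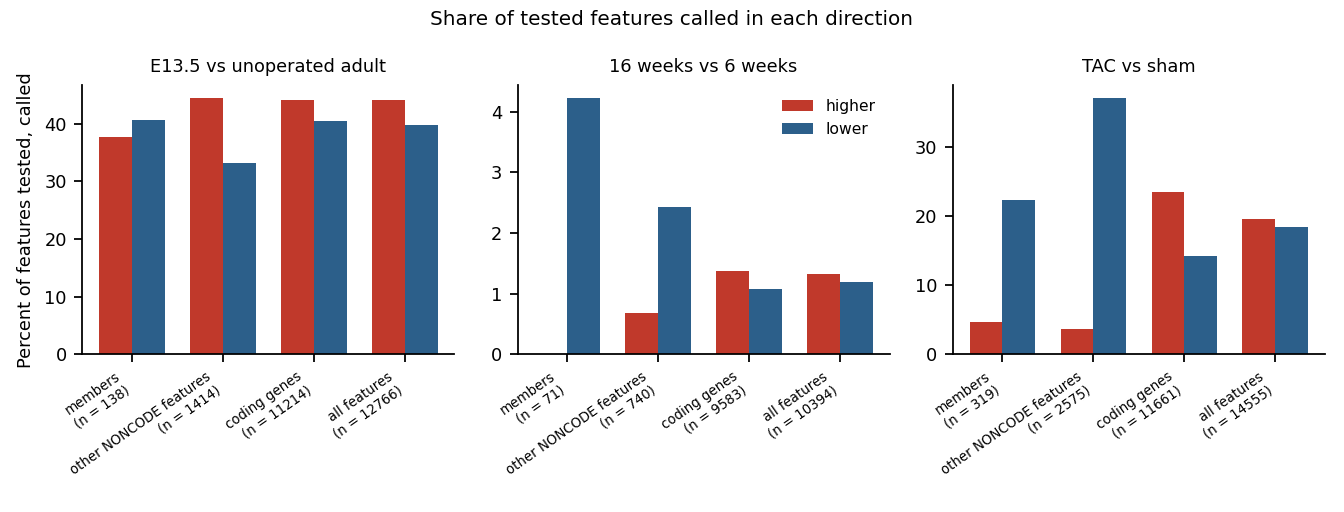
Percent of tested features called higher (red) or lower (blue) in each of the 3 comparisons, for the antisense features (members), other NONCODE features, coding genes and all features, with the number tested under each pair of bars. In the TAC comparison both NONCODE classes were called lower more often than higher, and coding genes the other way round.

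n413452 (chr2:120358639-120365582 on the plus strand) has 2 exons that cover 2366 coding bases of Zfp106, a zinc-finger protein that binds RNA, and 964 own bases inside that gene. Its level was 0.608 to 1.5 CPM (median 1.06) at E13.5 and 25.8 to 40.7 CPM (median 32.3) in unoperated adults. The 7 embryonic hearts all lay far below the 12 adult hearts, with a log2 fold change of -4.92 ± 0.13 (SE; adjusted p = 1.67e-24). Zfp106 itself was lower at E13.5 by less, with -2.77 ± 0.07 (SE; adjusted p = 1.69e-25).

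n294072 (chr2:91090899-91096152 on the minus strand) shares only 42 bases with the first exon of Pacsin3, a protein that bends membranes in muscle, and its 3549 own bases lie outside every coding gene. The level was 0.469 to 0.978 CPM (median 0.902) at E13.5 and 21 to 36.7 CPM (median 22.6) in adults. No embryonic heart reached 1 CPM and no adult heart was below 20, for a log2 fold change of -4.92 ± 0.16 (SE; adjusted p = 2.06e-22). Pacsin3 moved the same way, at -3.34 ± 0.12 (SE; adjusted p = 8.98e-19). n268448 (chr19:4169565-4174284 on the plus strand), which crosses the start of the carnosine synthase gene Carns1, ran from 2.28 to 3.91 CPM (median 3.2) at E13.5 and from 26.8 to 67.3 CPM (median 39.7) in adults. Its change of -3.72 ± 0.17 (SE; adjusted p = 7.73e-17) stood beside -3.75 (adjusted p = 1.12e-17) for Carns1.

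n267912 (chr8:11477928-11480241 on the plus strand) crosses the start of Rab20, a small GTPase of membrane traffic. It was at 1.29 to 2.04 CPM (median 1.78) at E13.5 and 13.46 to 28.8 CPM (median 20.7) in unoperated adults, again with no overlap. The log2 fold change was -3.58 ± 0.15 (SE; adjusted p = 8.38e-20) for the feature and -1.8 (adjusted p = 2.75e-14) for Rab20. n289985 (chr10:53062246-53064040 on the minus strand) lies inside Pln and covers 156 bases of its coding sequence. It had 4.18 to 6.66 CPM (median 5.66) at E13.5 and 32.9 to 61.6 CPM (median 51.8) in adults, a change of -3.17 ± 0.11 (SE; adjusted p = 2.57e-21) beside -3.5 (adjusted p = 4.15e-09) for Pln.

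The largest deficit at E13.5 among the named features was not shared by the partner. n269943 (chr8:88254714-88288994 on the plus strand), 5 exons inside Itfg1, was at 0 to 0.304 CPM (median 0.188) at E13.5, where its counts summed to 14 over 7 libraries. In the unoperated adults it was at 2.96 to 16.3 CPM (median 10). The log2 fold change was -5.85 ± 0.37 (SE; adjusted p = 3.70e-14), whereas Itfg1 was at 7.6 to 12.1 CPM and 5.11 to 13 CPM with a change of -0.08 (adjusted p = 0.598), which was not called. Other features lower at E13.5, with groups that did not overlap, were n277825 (Trim7, a ubiquitin ligase) at -4.83, n266488 (Slc22a4, a transporter of organic cations) at -4.66 and n268853 (Adap2) at -3.33. Their partners changed by -2.69, -1.01 and -3.26. The call of Slc22a4 was lost with 16-week adults alone as the reference and with the embryonic libraries thinned to adult depth.

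Among the features higher at E13.5, n413609 (chr14:56483147-56493572 on the minus strand) was the most abundant. It crosses the end of Nynrin with 242 bases, all of them opposite coding sequence, and its 4005 own bases lie beyond any coding gene. The level was 219.9 to 271 CPM (median 239.5) at E13.5 and 14.1 to 25.9 CPM (median 20.3) in adults. All embryonic hearts were above all adult hearts, with a log2 fold change of 3.61 ± 0.07 (SE; adjusted p = 4.06e-27). Nynrin changed almost as much, at 3.55 ± 0.10 (SE; adjusted p = 3.68e-24).

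n288736 (chr17:12941160-12944859 on the plus strand) lies within Igf2r, the receptor that clears the growth factor IGF2 and is expressed from the maternal copy in most mouse tissues. Its single exon of 3700 bases overlaps Igf2r exons by 384, and the gene model does not say whether it is part of the silencing antisense RNA named above. It was at 94.2 to 108 CPM (median 99.8) at E13.5 and 12.8 to 28.6 CPM (median 19.9) in adults, a change of 2.33 ± 0.09 (SE; adjusted p = 8.22e-21) with no overlap. Igf2r was at 3053 to 4045 CPM and 517 to 671 CPM, with 2.55 (adjusted p = 3.95e-25). n266249 (chr11:117677546-117680503 on the plus strand) lies inside Tk1, the thymidine kinase of dividing cells. The feature was at 11.6 to 17.6 CPM (median 14.2) and 1.39 to 5.91 CPM (median 2.33), with 2.4 ± 0.18 (SE; adjusted p = 1.58e-13) beside 2.92 (adjusted p = 1.06e-20) for Tk1. Its own bases also lie within a coding gene on its own strand, and unspliced RNA of that gene cannot be told apart from it either.

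A pair of features opposite Ypel4 were both higher at E13.5. n285863 inside the gene had 4.53 to 9.85 CPM at E13.5 and 0 to 1.37 CPM in adults, with 3.0 (adjusted p = 3.98e-11). n287443 across its end had 6.54 to 10.5 CPM and 0.465 to 3.56 CPM, with 2.51 (adjusted p = 8.70e-13). Ypel4 itself changed by 3.46 (adjusted p = 2.55e-12). Features that adult hearts barely showed had high fold changes too. n271007, across the end of the potassium channel gene Kcnj6, had 8.34 to 10.6 CPM at E13.5 and 0 to 1.98 CPM in adults, with 4.82 (adjusted p = 1.74e-14). n294060, inside the homeobox repressor gene Tgif2, had 3.34 to 4.88 CPM and 0 to 1.42 CPM, with 3.27 (adjusted p = 1.76e-09). Neither Kcnj6 nor Tgif2 passed the filter. In n285863, n287443, n271007 and n294060 no adult heart reached the filter's level of 3.78 CPM. These features passed through the E13.5 hearts, where they were high, and so leaned to a difference by the filter alone. n289881 inside AB124611 changed by 2.31 (adjusted p = 8.82e-11), with 0.94 (adjusted p = 1.61e-04) for its partner.

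Antisense feature and partner mostly moved the same way between stages. Of the 52 features higher at E13.5, the partner was higher for 32, lower for 6, not called for 7 and not tested for 7. Of the 56 lower features, the partner was lower for 35, higher for 8, not called for 6 and not tested for 7. Over the 122 pairs in which both were tested, the log2 fold changes of feature and partner had a Pearson correlation of 0.65 and a Spearman correlation of 0.65, given as a description across pairs that share libraries. The correlation was 0.67 over 69 features with all own bases inside the partner, and 0.71 over 24 with no own base there. The part of unspliced partner RNA in these values was not tested.

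**Figure D3:**
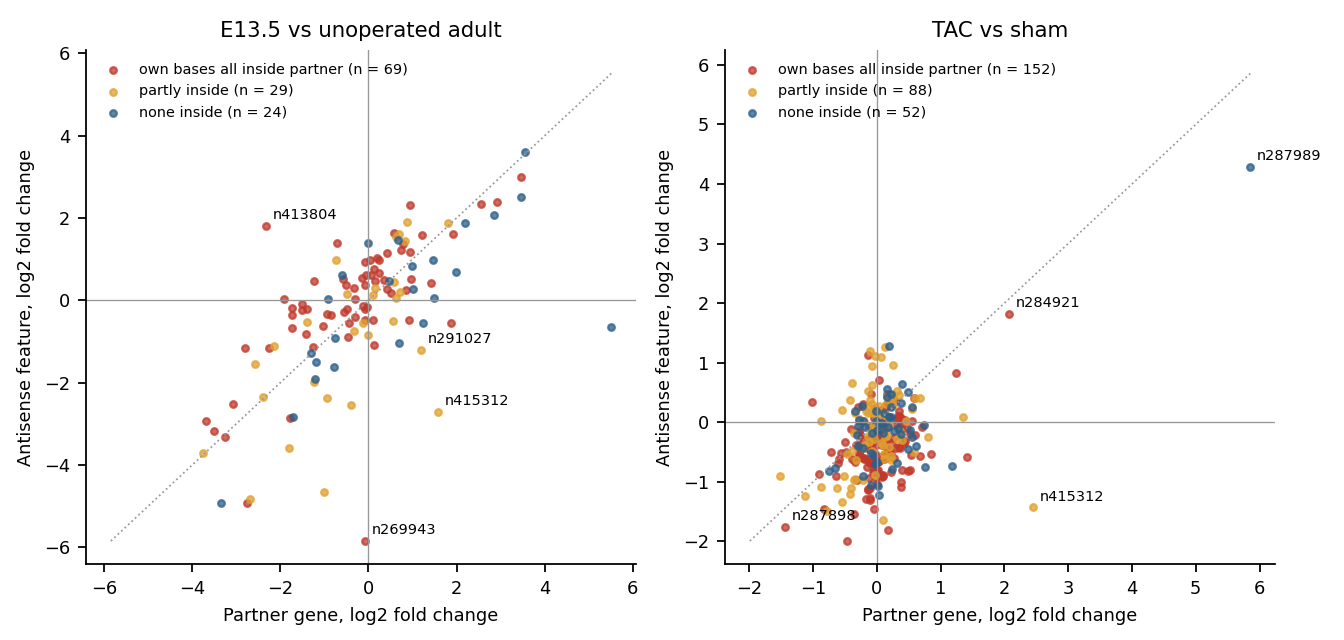
Log2 fold change of each antisense feature (vertical axis) against that of its partner gene (horizontal axis), 1 point per pair with both tested, for E13.5 against unoperated adult (122 pairs) and TAC against sham (292 pairs). Colours give how many of the feature's own bases lie inside the partner's span, and the dotted line marks equal changes. Fold changes span a wider range between stages than under TAC, where the pair of n287989 and Hspa1b stands alone at the upper right.

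A smaller set moved against the partner, led by the antisense features of Kcnq1 and Myh7. n413804 (chr7:150399015-150482452 on the minus strand) is a single exon of 83438 bases inside Kcnq1, the gene of a potassium channel that ends the cardiac action potential and part of an imprinted cluster. Its level was 169 to 182 CPM (median 179.5) at E13.5 and 34.9 to 65 CPM (median 51.9) in adults, a log2 fold change of 1.81 ± 0.07 (SE; adjusted p = 5.97e-20). Kcnq1 was at 15.4 to 20.4 CPM (median 17) at E13.5 and 73.4 to 108 CPM (median 85.4) in adults, the opposite order, with -2.32 ± 0.08 (SE; adjusted p = 1.75e-21). Neither set of groups overlapped.

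n415312 (chr14:55587623-55593186 on the plus strand) has 5 exons, of which 467 bases lie opposite coding exons of Myh7 and 366 are its own. It was at 8.79 to 19.7 CPM (median 11.7) at E13.5 and 58.3 to 139 CPM (median 92.3) in unoperated adults, with -2.71 ± 0.15 (SE; adjusted p = 6.01e-13). Myh7, the heavy chain typical of the embryonic ventricle in mice, was at 6769 to 10660.4 CPM (median 7833) and 2351 to 3482 CPM (median 2857), with 1.58 ± 0.07 (SE; adjusted p = 4.80e-18). Feature and partner were therefore high in opposite stages.

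n414373 and n291027 were also lower at E13.5 while their partners were higher. n414373 (chr16:31947136-31948607 on the minus strand), which shares 9 bases with the first exon of the cap-binding protein gene Ncbp2, was at 29.1 to 33.3 CPM (median 30.5) at E13.5 and 52.9 to 77.6 CPM (median 63.2) in adults, with -1.04 (adjusted p = 1.41e-13) against 0.70 (adjusted p = 5.72e-10) for Ncbp2. n291027 (chr4:40216611-40217254 on the plus strand), across the start of the ubiquitin and SUMO ligase gene Topors, was at 1.6 to 3.61 CPM and 3.73 to 7.95 CPM, with -1.2 (adjusted p = 1.62e-06) against 1.19 (adjusted p = 1.33e-13). Conversely n412929 was higher at E13.5 by 0.98 (adjusted p = 3.32e-04) while its partner Keap1, the sensor of oxidative stress, changed by -0.73 (adjusted p = 2.95e-09). n266661 was higher at E13.5 by 1.38 (adjusted p = 2.62e-06) while the proteasome gene Psmb7 changed by -0.71 (adjusted p = 2.56e-11). The groups of these latter features overlapped.

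Between 6 and 16 weeks hardly any antisense feature changed, in a comparison with few changes anywhere. Of 71 features tested, 0 were higher and 3 lower at 16 weeks, against 2.51% called among all 10394 features tested (1.32% higher and 1.19% lower). Of coding genes 2.45% were called (1.38% higher and 1.07% lower), and of other NONCODE features 3.11% (0.676% higher and 2.43% lower). The 3 were the features opposite Myh7, Myh6 and Trim7, and the groups did not overlap in 2 of the 71, against 2.05% of all features tested. DESeq2 also called 0 higher and 3 lower, and at an unadjusted p under 0.05 edgeR gave 6 higher and 7 lower. Without the 4 sex-discordant libraries, 0 were higher and 2 lower of 75 tested.

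n415312 opposite Myh7 was at 93.2 to 139 CPM (median 111) at 6 weeks and 58.3 to 91.5 CPM (median 62.8) at 16 weeks. Every 16-week heart was below every 6-week heart, with -0.68 ± 0.12 (SE; adjusted p = 0.00556), whereas Myh7 changed by 0.19 (adjusted p = 0.145) and was not called. n279092 (chr14:55572562-55573802 on the plus strand), a single exon inside Myh6, was at 247 to 349.8 CPM (median 286) and 149 to 249.99 CPM (median 177). The ranges met at their edges, and the change was -0.66 ± 0.11 (SE; adjusted p = 0.00517) beside 0.05 (adjusted p = 0.834) for Myh6, which was not called. n277825 opposite Trim7 was at 4.36 to 8.72 CPM (median 6.91) and 1.76 to 3.86 CPM (median 3.6), with -1.06 ± 0.27 (SE; adjusted p = 0.0368) and -0.55 (adjusted p = 0.00517) for Trim7, called in the same direction. The call of n277825 was lost in 8 of the 12 fits that left out 1 heart.

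Under pressure overload the antisense features fell more often than they rose. The features opposite Myh7, Myh6, Pln, Corin, Atp2a2 and Ryr2, all on the list of contraction and calcium handling genes, were lower in TAC hearts. Those opposite Bdh1, Gjd2, Topors and Rab20 were higher. Of the 7 cardiomyocyte markers, 3 were lower, 1 was higher and the others were not called. Their summed ranges in sham and TAC hearts overlapped, and their part in this was not tested. Of 319 tested, 15 were higher and 71 lower. Among all 14555 features tested 38.0% were called, 19.6% higher and 18.4% lower. The lean to lower calls was not limited to these features: of 2575 other NONCODE features tested, 3.57% were higher and 37.0% lower (40.6% in all), and of 11661 coding genes 23.5% and 14.2% (37.7% in all). The median log2 fold change was -0.24 over the 319, -0.46 over the other NONCODE features and 0.00 over all features. The groups did not overlap in 77 of the 319, against 35.7% of all features tested. Without the 4 sex-discordant sham and TAC libraries, 24 were higher and 59 lower of 361 tested. That fit kept only sham replicates 1 and 4 and TAC replicates 1 and 2. For a call lost there, the smaller number of hearts and the discordant hearts cannot be told apart. Here 291 of the 319 had a mean TMM-scaled CPM of at least 0.927, the filter's level, in both groups. This count is approximate too, as the filter reads CPM without TMM factors.

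n415312 fell as Myh7 rose. Its levels in the 4 sham hearts were 237, 283, 311 and 252 CPM and in the TAC hearts 98.1, 109.9, 90.6 and 116 CPM, given here and below in the order of replicates 1 to 4 for sham, and of replicates 1 to 3 and the female-labelled heart for TAC. Every TAC heart was below every sham heart, with -1.43 ± 0.10 (SE; adjusted p = 1.40e-07). Myh7 had 459, 456, 465 and 464 CPM in sham and 2779, 3457, 2733 and 1343 CPM in TAC hearts, with 2.44 ± 0.29 (SE; adjusted p = 9.03e-04). The female-labelled TAC heart had the lowest Myh7 and the highest n415312 of the 4. It is 1 of the sex-discordant hearts: it held 389 Y-linked counts, and the male-labelled TAC replicates 1 to 3 held 155, 338 and 1. In the unoperated adults, the median of n415312 was 92.3 CPM and that of Myh7 2857 CPM, so sham hearts stood above the unoperated ones for the feature and below for the gene. Surgery, depth and base quality encoding differ together between those groups.

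n279092 opposite Myh6 had 194, 165, 199.96 and 201 CPM in sham and 95.5, 148, 98.2 and 108 CPM in TAC hearts. No TAC heart reached the lowest sham heart, with -0.80 ± 0.13 (SE; adjusted p = 0.00112), while Myh6 itself changed by -0.05 (adjusted p = 0.699) and was not called. Without the sex-discordant libraries, the adjusted p of n279092 was 0.0893. n289985 opposite Pln had 51.2, 54.3, 47.9 and 60.5 CPM and 29.8, 34.9, 28 and 28.1 CPM, with -0.87 ± 0.09 (SE; adjusted p = 5.57e-06). Pln fell with it: 684, 512, 705 and 766 CPM in sham, 377, 328, 356 and 407 CPM in TAC hearts and -0.90 (adjusted p = 6.99e-05).

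n268922 (chr5:72895061-72896497 on the plus strand) crosses the start of Corin, the protease that activates atrial natriuretic peptide. It had 7.96, 4.48, 7.55 and 6.12 CPM in sham and 1.89, 2.34, 2.89 and 2.32 CPM in TAC hearts. The groups were apart, with -1.49 ± 0.22 (SE; adjusted p = 1.10e-04), and Corin moved the same way at -0.79 (adjusted p = 2.39e-06). n283980 (chr5:122947595-122950827 on the plus strand) lies in Atp2a2, the calcium pump that Pln restrains. It had 4.2, 2.98, 2.0 and 4.69 CPM in sham and 0.779, 0.532, 0.964 and 1.51 CPM in TAC hearts, with -1.94 ± 0.33 (SE; adjusted p = 3.36e-04). Atp2a2 has no exonic base of its own in this gene model and held no count, so its level is not known here. n279026 opposite the calcium release channel gene Ryr2, named after its values were seen, had 6.08, 4.7, 4.47 and 4.89 CPM and 2.11, 2.66, 3.11 and 1.74 CPM, with a log2 fold change of -1.10 (adjusted p = 9.44e-04). Ryr2 was lower too, with 6584, 6786, 7085 and 6706 CPM in sham and 4612, 3978, 4602 and 4981 CPM in TAC hearts.

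**Figure D4:**
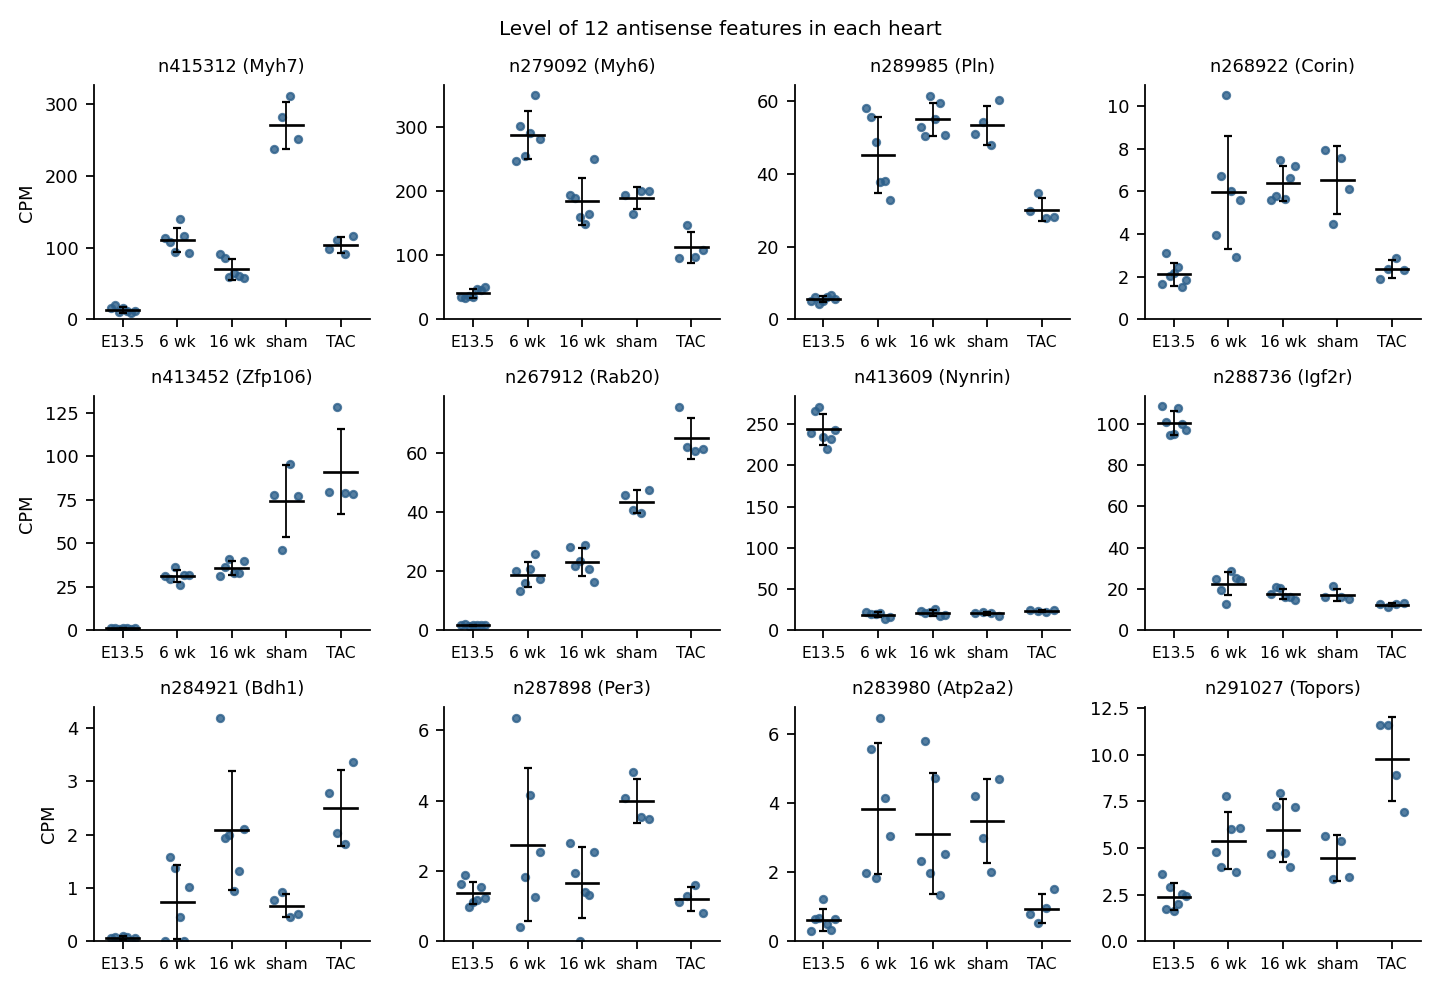
CPM of 12 antisense features in each heart (points) by group, with the partner gene in brackets, the group mean (line) and the SD (error bars). Vertical axes are linear, start at 0 and differ between panels. n415312, n279092 and n289985 are low at E13.5 and lower in TAC than in sham hearts, whereas n413609 and n288736 are high at E13.5.

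A clock gene and ion channel genes had antisense features that fell. n287898 (chr4:150392584-150396004 on the plus strand) lies inside the clock gene Per3 and had 4.09, 4.82, 3.54 and 3.47 CPM in sham and 1.11, 1.28, 1.61 and 0.81 CPM in TAC hearts. It changed by -1.75 ± 0.26 (SE; adjusted p = 9.34e-05), and Per3 by -1.44 (adjusted p = 1.27e-07). n263902 (chr2:55285914-55290271 on the minus strand) crosses the start of Kcnj3, a subunit of the acetylcholine-gated potassium channel. It had 7.51, 9.52, 11.1 and 5.71 CPM and 3.78, 3.41, 3.75 and 3.7 CPM, with -1.23 ± 0.20 (SE; adjusted p = 2.57e-04) beside -1.13 (adjusted p = 5.02e-06) for Kcnj3. n413804 inside Kcnq1 had 55.1, 62.9, 67.6 and 60.1 CPM and 25, 24.3, 27.2 and 27.7 CPM. All 4 TAC hearts were at less than any sham heart, with -1.28 ± 0.09 (SE; adjusted p = 6.34e-08), while Kcnq1 changed by -0.11 (adjusted p = 0.395) and was not called.

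Further declines of features with non-overlapping groups were spread over genes of several roles. n411883 inside the histone deacetylase gene Hdac4 had 1.88, 1.38, 4.31 and 1.53 CPM in sham and 0.779, 0.319, 0.643 and 0.463 CPM in TAC hearts, sham replicate 3 standing above the others, with -1.99 ± 0.43 (SE; adjusted p = 0.00206). n281748 inside Spg7, the gene of a mitochondrial protease, had 2.65, 3.33, 3.54 and 2.34 CPM and 1.11, 0.851, 0.643 and 0.81 CPM, with -1.81 ± 0.28 (SE; adjusted p = 1.54e-04). Their partners changed by -0.47 (adjusted p = 5.57e-05) and 0.18 (adjusted p = 0.0724). n265693 (Tcea3), n286188 (Car14) and n268708 (Mtus1) changed by -1.55, -1.46 and -1.45. Of their partners, Tcea3 and Car14 were lower at -0.35 and -0.82, and Mtus1 was not called at -0.04. The call of n268708 was lost without sham replicate 3 (adjusted p = 0.0719), without TAC replicate 2 (adjusted p = 0.0619) and without the sex-discordant libraries (adjusted p = 0.0788). Unoperated adults had means of 0.295 CPM at 6 weeks and 0.605 CPM at 16 weeks for n281748, below its TAC mean of 0.854 CPM. For n411883, n265693 and n286188 both unoperated means were above the TAC mean, and for n268708 they lay on either side of it. Surgery, depth and base quality encoding differ together between those groups.

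Of the 15 features higher in TAC hearts, 11 had a partner that was tested, and 4 of these were called (3 higher, 1 lower), against 37.7% of all coding genes. n284921 (chr16:31427963-31429862 on the minus strand) lies inside Bdh1, an enzyme of ketone body use. It had 0.774, 0.918, 0.462 and 0.51 CPM in sham and 2.78, 2.02, 1.82 and 3.36 CPM in TAC hearts, with 1.82 ± 0.33 (SE; adjusted p = 5.18e-04). Bdh1 rose alike, from 96.8, 82, 52.1 and 88 CPM to 377, 382, 279 and 347 CPM, with 2.07 ± 0.19 (SE; adjusted p = 1.42e-04). n267912 across the start of Rab20 had 46, 40.7, 39.7 and 47.6 CPM and 75.5, 62.1, 60.7 and 61.5 CPM, with 0.53 ± 0.09 (SE; adjusted p = 2.32e-04). Rab20 changed by 0.32 (adjusted p = 0.0175), a call lost without TAC replicate 3 (adjusted p = 0.0608) and without the sex-discordant libraries (adjusted p = 0.124). n286004 inside the collagen crosslinking gene Loxl2 changed by 0.83 (adjusted p = 0.0146) and Loxl2 by 1.24 (adjusted p = 0.012). The call of n286004 was lost without TAC replicate 1 (adjusted p = 0.0677) and without the sex-discordant libraries (adjusted p = 0.0632).

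Other features rose where the partner was not called or not tested. n291027 across the start of Topors had 5.64, 3.33, 5.39 and 3.47 CPM in sham and 11.6, 11.6, 8.89 and 6.95 CPM in TAC hearts, with 1.1 ± 0.21 (SE; adjusted p = 8.44e-04), and Topors 0.06 (adjusted p = 0.655). n414373 opposite Ncbp2 had 68.7, 60.1, 66.9 and 70.3 CPM and 98.7, 91.8, 91.9 and 86.1 CPM, with 0.43 ± 0.07 (SE; adjusted p = 2.81e-04), and Ncbp2 0.15 (adjusted p = 0.299). n277166 opposite the gap junction gene Gjd2 had 1.11, 1.26, 1.08 and 1.22 CPM and 4.56, 2.98, 4.93 and 5.79 CPM, with 1.9 ± 0.26 (SE; adjusted p = 5.36e-05). That value rests on 35 own bases, and Gjd2 held 2 counts over the 4 sham hearts and 0 over the TAC hearts. n284943 (Senp3, a SUMO protease), n293062 (Hnrnpf, an RNA-binding protein), n293904 (Ankrd57), n286471 (Adra1d, an adrenergic receptor), n264745 (Alkbh5, an RNA demethylase) and n290912 (Madcam1) changed by 1.26, 1.13, 1.31, 1.27, 1.2 and 1.19. In these 6 no TAC heart lay within the sham range. The call of n264745 was lost without the sex-discordant libraries (adjusted p = 0.300). Its mean was 0.967 CPM at 6 weeks and 5.75 CPM at 16 weeks, beside 1.17 CPM in sham and 2.83 CPM in TAC hearts.

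The partners of features called in TAC were counted in the same way. Of the 71 lower features the partner was lower for 18, higher for 9, not called for 41 and not tested for 3. Of the 15 higher features the partner was higher for 3, lower for 1, not called for 7 and not tested for 4. Over 292 pairs the Pearson correlation of the log2 fold changes was 0.46 and the Spearman correlation 0.28. Without the pair of n287989 and Hspa1b, singled out after its values were seen, Pearson's value was 0.28 and Spearman's 0.28 over 291 pairs. For the 52 pairs with no own base inside the partner, Pearson's value was 0.75, and 0.15 over 51 without that pair. The E13.5 and TAC correlations rest on different sets of pairs, and the difference between them was not tested. Hspa1b encodes an inducible heat-shock chaperone. n287989 had 0.332, 0.574, 0.154 and 0.306 CPM in sham and 4.45, 1.81, 21.7 and 1.16 CPM in TAC hearts, and Hspa1b 0.111, 0.23, 0.154 and 0.204 CPM and 5.79, 2.34, 35.1 and 1.51 CPM. TAC replicate 3 was the highest in both, and n287989 was not called (log2 fold change 4.29, adjusted p = 0.0602).

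Pairs that moved apart under TAC were led by n415312 and Myh7. n295955 changed by -0.73 (adjusted p = 0.0255) while its partner 1810063B05Rik changed by 1.17 (adjusted p = 2.70e-04). n265634, inside the gene of the actin-binding protein cortactin, changed by -0.57 (adjusted p = 0.0181) and its partner Cttn by 0.67 (adjusted p = 1.15e-05). n271974 changed by -0.54 (adjusted p = 0.0121) and Slc16a6, of the monocarboxylate transporter family, by 0.84 (adjusted p = 0.00685). n286468 changed by -0.80 (adjusted p = 0.0245) and Ddit3, a transcription factor of the unfolded protein response, by 0.53 (adjusted p = 0.00502). n265923 changed by -0.80 (adjusted p = 0.0326) and Msrb3, which repairs oxidised methionine, by 0.39 (adjusted p = 6.06e-04). These 5 features lay near the threshold. The calls of n295955, n286468 and n265923 were lost in 4, 6 and 4 of the 8 fits that left out 1 heart, and those of n265634 and n271974 in 0 of them. Without the sex-discordant libraries the calls of n265634 (adjusted p = 0.248) and n295955 (adjusted p = 0.0516) were lost. DESeq2 did not call n295955 (adjusted p = 0.0606) or n265923. n294072 at Pacsin3, which was lower at E13.5 like its partner, had 24.8, 24.6, 22.6 and 24.1 CPM in sham and 21.7, 22.5, 18.7 and 20.1 CPM in TAC hearts, with -0.25 (adjusted p = 0.0449) against 0.56 (adjusted p = 3.94e-05) for Pacsin3. That call was lost in 7 of those 8 fits, without the sex-discordant libraries (adjusted p = 0.244) and with DESeq2 (adjusted p = 0.0679).

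The E13.5 and TAC comparisons share no library, and 128 features were tested in both. Of these, 33 were called in both, or 25.8%, beside 32.8% of the 12155 features tested in both and 31.5% of the other NONCODE features. Among the 33, 16 were lower at E13.5 and in TAC, 2 higher in both, 11 higher at E13.5 and lower in TAC, and 4 lower at E13.5 and higher in TAC. As shares of the 128 these are 12.5%, 1.56%, 8.59% and 3.12%, beside 9.77%, 9.88%, 4.50% and 8.68% of all features and 17.7%, 1.88%, 9.84% and 2.11% of the other NONCODE features. Lower in both were n415312, n268922, n263902 and n289985, described above, together with n277825 (Trim7) and n344179 (AI452195), at -0.95 and -0.82 in TAC. Higher in both were n284943 and n293062, with 1.61 and 0.41 at E13.5. The E13.5 call of n293062 was lost without the sex-discordant libraries (adjusted p = 0.0623) and with 16-week adults alone as the reference (0.904). It was also lost with the embryonic libraries thinned to adult depth.

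Higher at E13.5 and lower in TAC were, besides n413804 and n288736, the features opposite Tm9sf1 (n278676), Numa1 (n275215), Ccdc125 (n270851), 1110034A24Rik (n413667) and Kri1 (n291004). With sham hearts as the E13.5 reference, n275215 was at -0.0097 and n291004 at -0.0014 and neither was called higher. n288736 inside Igf2r had 15.9, 21.3, 16.3 and 15.1 CPM in sham and 12.8, 11.3, 12.6 and 13 CPM in TAC hearts, with -0.51 (adjusted p = 0.00553) and 0.16 (adjusted p = 0.0756) for Igf2r, which was not called. The adjusted p of n288736 was 0.0509 without the sex-discordant libraries. n278676, n275215, n270851, n413667 and n291004 changed by -1.06, -1.03, -0.84, -1.05 and -0.61 in TAC, and no tested partner was called. Single hearts decided several of these calls: that of n278676 was lost without sham replicate 1 (adjusted p = 0.0843), that of n413667 without any 1 of sham replicate 3 and TAC replicates 1 to 3, and that of n291004 without any 1 of sham replicates 1 and 4, TAC replicate 3 and the female-labelled TAC heart. Without the sex-discordant libraries the calls of n270851 (adjusted p = 0.0503) and n291004 (adjusted p = 0.174) were lost, and DESeq2 did not call n291004 (adjusted p = 0.0529). Lower at E13.5 and higher in TAC were n267912, n291027, n414373 and n282643, the latter with 0.33 (adjusted p = 0.0442) in TAC. That call was lost in 6 of the 8 fits that left out 1 heart and with DESeq2.

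**Figure D5:**
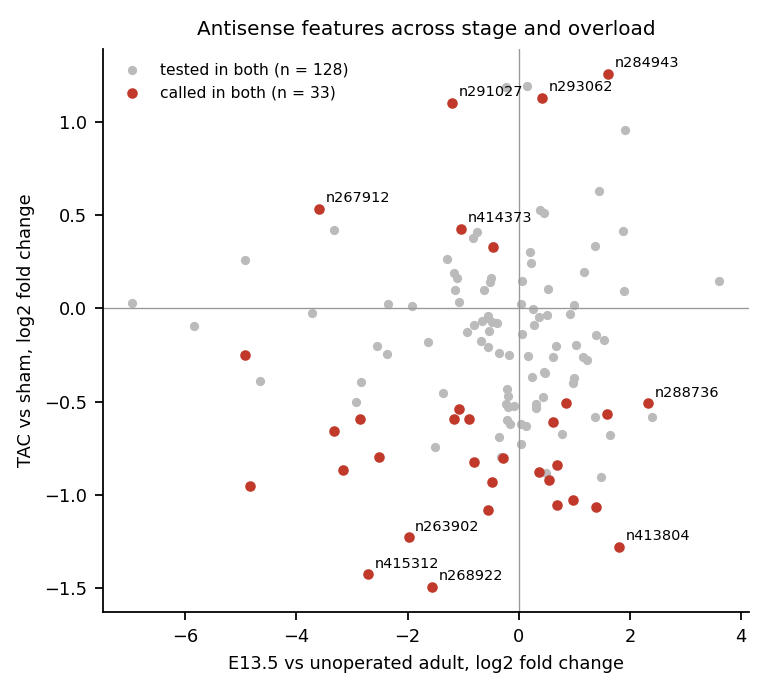
Log2 fold change of E13.5 against unoperated adult (horizontal axis) and of TAC against sham (vertical axis) for the 128 antisense features tested in both, with the 33 called in both in red. Most red points lie below the horizontal line, on both sides of the vertical one.

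Grouped by the partner's role, antisense features were few in every list. Genes of contraction and calcium handling had 16 such features on 12 of 72 genes, and 12 held a count. All 6 tested in TAC were lower, where 18.4% of all features and 37.0% of other NONCODE features were lower. All 4 tested at E13.5 were lower too (39.7% and 33.1%), as were 2 of the 4 tested between ages (1.19% and 2.43%). The list was chosen with earlier results of these data known. Of the genes themselves, 34 were higher and 13 lower of 67 tested in TAC, and 15 higher and 51 lower of 70 at E13.5. The 6 lie opposite Myh7, Myh6, Pln, Corin, Atp2a2 and Ryr2.

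Ion channel and transporter genes had 7 features, of which 3 were tested at E13.5 (1 higher, 2 lower) and in TAC (2 lower). Besides n413804 and n263902, the third was n282979 at Kcnk3, a background potassium channel, with -2.35 (adjusted p = 7.94e-19) at E13.5, where Kcnk3 changed by -2.39 (adjusted p = 1.18e-23), and 0.02 (adjusted p = 0.883) in TAC, where it was not called. Imprinted and oncofetal genes had 29 features on 10 genes, but only 8 held a count. The 2 tested at E13.5 were higher and all 3 tested in TAC lower, the additional one being n264718 at the end of Ube3a, a ubiquitin ligase gene, at -1.22 (adjusted p = 0.00908). Of the genes on the list, 20 of 23 tested were higher at E13.5 and 2 of 17 lower in TAC. Of all features, 44.1% were higher at E13.5 and 18.4% lower in TAC, beside 44.4% and 37.0% of other NONCODE features. The TAC call of n264718 was lost without the sex-discordant libraries (adjusted p = 0.122).

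The other lists gave less. Cell division genes had 10 features, 1 tested at E13.5 (n266249, higher) and 1 in TAC (not called), although 59 of 62 of the genes were higher at E13.5. Clock genes had 7, of which n287898 was lower in TAC and n285474, inside the casein kinase gene Csnk1e, higher at E13.5 at 1.36 (adjusted p = 8.45e-07). Energy metabolism genes had 19, with 0 tested at E13.5 and 2 in TAC, of which n284921 was higher. Extracellular matrix genes had 18, with 1 tested in TAC, n286004, which was higher, as were 50 of 64 of the genes. Cardiac transcription factors had 13 and growth factor and receptor genes 20 features, and none of the 1 and 0 tested at E13.5 and the 2 and 2 tested in TAC was called.

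Among the 8 most abundant features per own base, 3 have not yet been given. n4341 (chr4:43505656-43505931 on the minus strand), across the start of Ccdc107, was at 5.82 to 28.4 CPM at E13.5, 15.1 to 46.7 CPM in unoperated adults, 2.43 to 6.01 CPM in sham and 3.62 to 5.79 CPM in TAC hearts. Its change at E13.5 was -0.75 (adjusted p = 0.0146) against unoperated adults and 2.34 against sham hearts, the opposite direction. n286810 at Atcay was at 18 to 24 CPM at E13.5 and 21.3 to 47.1 CPM in unoperated adults, with -0.47 (adjusted p = 1.50e-04). n282643 at Slc39a5 was at 12.4 to 14.8 CPM and 13.3 to 25.8 CPM, with -0.46 (adjusted p = 2.67e-04). The groups overlapped in all 3.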

How the data were processed

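Per the submitters' processing notes, reads were aligned to mm9 with Bowtie and TopHat 1.3.0 and counted with HTSeq. The counting mode is not given in the sources used here. The authors deposited whole-number counts per feature, 1 column per heart. All 27 per-library tables equalled the series table, whose total row was left out. Libraries were grouped by their labels, and no pair of replicates differed by as little as sampling noise.

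Features were filtered with edgeR 4.0.16 (filterByExpr with a minimum count of 10 and a minimum total of 15). TMM factors were used, and the robust quasi-likelihood test (R 4.3.3) was fitted on all features with Benjamini-Hochberg adjustment. The comparisons were E13.5 against the mean of both unoperated adult groups, 16 against 6 weeks, and TAC against sham. The script was tested on simulated data. Depth per library, given in the report, limits the precision of low counts. Alternatives were DESeq2 1.42.0, other size factors, filters, references and overlaps, thinning, a replicate block, and each library left out.

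Named features are, per comparison, up to 8 called in each direction with the largest fold change, a mean of at least 1 CPM and groups apart. Added were the 8 with the highest level per own kilobase, up to 6 opposite to their partner, up to 4 per list of partner genes (mean of at least 0.5 CPM), and up to 6 per combination of E13.5 and TAC calls. Members and lists were chosen with earlier results of these data known. The printed promoters, motifs and plotted features, n287989, n279026, the counts of partner direction, and the fit without libraries against their sex label (4 Y-linked genes, at most 3 counts in a male) were chosen after values were seen. 1 feature is not reported here.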

Additional observations from a re-analysis of the deposited data

Results flagged for a closer look

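In groups of 4 to 7 hearts, the gap between the most extreme heart and its nearest neighbour, as a share of the group's range, passed the 95% limit of Dixon's test in 31 of 295 groups of the 59 named features. For normally distributed values, chance alone gives about 1 in 20. Several of the values below rest on 5 counts or fewer, where that share need not hold. The 31 are therefore not read as an excess over chance. Only the heart, its level and the level of its nearest neighbour are given.

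Among sham hearts, replicate 2 was highest for n284943 (Senp3) at 1.95 CPM, next to 1.44 CPM. Replicate 3 was highest for n268708 (Mtus1) at 3.85 CPM, next to 1.33 CPM, n411883 (Hdac4) at 4.31 CPM, next to 1.88 CPM, and n4341 (Ccdc107) at 6.01 CPM, next to 2.75 CPM. Replicate 3 was lowest for n286468 (Ddit3) at 4.78 CPM, next to 10.9 CPM, and n286810 (Atcay) at 17.6 CPM, next to 32.3 CPM. Replicate 4 was lowest for n293062 (Hnrnpf) at 2.85 CPM, next to 3.44 CPM.

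Among TAC hearts, replicate 1 was highest for n266488 (Slc22a4) at 5.9 CPM, next to 4.52 CPM, and n267912 (Rab20) at 75.5 CPM, next to 62.1 CPM. Replicate 2 was highest for n413452 (Zfp106) at 128 CPM, next to 79.2 CPM. Replicate 2 was lowest for n268708 (Mtus1) at 0.319 CPM, next to 0.75 CPM, and n271974 (Slc16a6) at 5.32 CPM, next to 7.07 CPM. Replicate 3 was lowest for n282979 (Kcnk3) at 28.8 CPM, next to 34.2 CPM.

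At E13.5, replicate 2 was highest for n290912 (Madcam1) at 6.52 CPM, next to 3.72 CPM. Replicate 4 was highest for n283980 (Atp2a2) at 1.22 CPM, next to 0.684 CPM, and n285863 (Ypel4) at 9.85 CPM, next to 5.64 CPM. Replicate 4 was lowest for n285474 (Csnk1e) at 3.47 CPM, next to 4.4 CPM. Replicate 5 was highest for n271974 (Slc16a6) at 7.66 CPM, next to 5.24 CPM. Replicate 7 was lowest for n413804 (Kcnq1) at 169 CPM, next to 177 CPM.

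At 6 weeks, replicate 3 was highest for n266249 (Tk1) at 5.03 CPM, next to 2.77 CPM, n268708 (Mtus1) at 2.29 CPM, next to 0.922 CPM, n285863 (Ypel4) at 1.37 CPM, next to 0.506 CPM, and n293062 (Hnrnpf) at 6.86 CPM, next to 4.05 CPM.

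At 16 weeks, replicate 1 was highest for n284921 (Bdh1) at 4.18 CPM, next to 2.11 CPM, and n294072 (Pacsin3) at 36.7 CPM, next to 25.6 CPM. Replicate 2 was highest for n268708 (Mtus1) at 1.45 CPM, next to 0.497 CPM. Replicate 3 was highest for n264718 (Ube3a) at 1.99 CPM, next to 0.465 CPM. Replicate 3 was lowest for n413667 (1110034A24Rik) at 0.497 CPM, next to 2.65 CPM. Replicate 4 was highest for n294060 (Tgif2) at 1.42 CPM, next to 0.465 CPM. Replicate 5 was highest for n277166 (Gjd2) at 1.76 CPM, next to 0 CPM. Replicate 6 was highest for n266249 (Tk1) at 5.91 CPM, next to 2.41 CPM.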

How the results depend on the processing

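Of the 87 calls of named features, 62 were kept under every alternative run, 23 were lost under at least 1 and 3 had another sign under 1. Of the 49 calls of their partners, 45 were kept and 0 changed sign. Alternatives were not computed for values that were not called. The sign changes came with sham hearts as the reference for E13.5: n4341 was at 2.34, n275215 at -0.0097 and n291004 at -0.0014, and the cause was not tested. For the E13.5 counts (52 higher, 56 lower, 67 with the partner called alike, 14 opposite), testing without a filter gave 430, 188, 433 and 67. A minimum of 1 CPM gave 152, 101, 166 and 34, and all 27 libraries in 1 fit gave 189, 150, 224 and 44. The 6-week reference gave 125, 88, 144 and 24, the 16-week reference 133, 91, 141 and 33, and the sham reference 204, 143, 235 and 44. More features were tested in each of these. An overlap of at least 100 bases left 9 opposite pairs of fewer members.

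Between ages (0 higher, 3 lower, 1 partner alike), testing without a filter gave 1 higher and 5 lower, and both the 1 CPM minimum and all 27 libraries gave 1 higher. The replicate block and the fit without libraries against their sex label gave 0 partners alike. In TAC (15 higher, 71 lower, 21 alike, 10 opposite), no filter gave 29 higher, 40 alike and 17 opposite, and the fit without libraries against their sex label gave 24 higher. The replicate block gave 50 higher and 53 lower at E13.5, 0 and 2 between ages, and 13 and 45 in TAC, with 17 alike and 4 opposite. Same-numbered hearts correlated at only -0.131 to 0.158 after removing group means, so the numbers do not pair them.

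Leaving out 1 heart in turn gave 45 to 60 higher, 52 to 57 lower, 59 to 73 alike and 11 to 18 opposite at E13.5. Between ages it gave 0 to 2 higher, 2 to 3 lower, 0 to 1 alike and 0 to 0 opposite. In TAC it gave 13 to 21 higher, 53 to 81 lower, 19 to 28 alike and 5 to 13 opposite, the lowest opposite count being without sham replicate 4. Adult depth limits the E13.5 and age comparisons to 138 and 71 of 3057 features. Strand is not recorded, so no value separates a feature from unspliced RNA across it.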
